A study of Mus musculus with 8 samples.

Results

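The interleukin-6 family of cytokines and their receptors was followed in mouse right cerebral cortex, by RNA-seq, after chronic narrowing of the carotid arteries. Its 10 members were chosen by gene symbol, from the 54752 genes of the count tables: the ligands Il6, Osm, Lif and Cntf, and the receptor chains Il6st, Il6ra, Osmr, Lifr, Il11ra1 and Cntfr. The animals were adult male wild-type C57BL/6 mice (C57BL/6 J in the study's methods), 14 weeks old at sampling. In the BCAS group (bilateral common carotid artery stenosis), microcoils had been placed around both common carotid arteries, the narrower coil on the right, and in the Sham group the same surgery was done without coils. Each group held 4 mice, cortex was taken 3 weeks after surgery, and each library came from 1 mouse, so the spread below is between animals.

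The cytokines named above signal through receptor complexes that contain gp130, the product of Il6st. Interleukin-6 binds its own alpha chain (Il6ra) before it recruits gp130, and oncostatin M in the mouse signals mainly through a pair of gp130 and the oncostatin M receptor (Osmr). Leukemia inhibitory factor uses gp130 with Lifr, and ciliary neurotrophic factor needs Cntfr in addition to that pair. The complexes activate Janus kinases and STAT3, which induces acute-phase genes and the feedback inhibitor Socs3, and in the brain this route is known for its part in the reaction of astrocytes to injury.

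In the BCAS cortex, transcripts of 3 receptor chains rose: Osmr 8.48-fold, Il6ra 4.70-fold and the shared chain Il6st 2.32-fold. Among the ligands, Osm rose from almost no reads to a low level and Lif rose 2.99-fold. The other receptor chains, Lifr, Il11ra1 and Cntfr, did not pass the test, and their fitted folds were 0.846, 1.28 and 0.931. Il6 and Cntf had too few reads to be tested.

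Of the 10 members, 8 passed the filter on low counts (edgeR's filterByExpr) that left 17136 genes to test. The filter asks for 0.558 counts per 1000000 (CPM) in at least 4 libraries. Osm reached this in 0 Sham and 4 BCAS libraries, and Lif in 3 Sham and 4 BCAS libraries, so their presence among the tested genes was itself tied to their level in BCAS. At an adjusted p under 0.05 (edgeR quasi-likelihood test, Benjamini-Hochberg over all tested genes), 5 members rose and 0 fell, where 19.2% of all tested genes rose and 12.8% fell. All 5 also passed an absolute log2 fold change of 1, which 11.0% of tested genes passed upward. In the same 5 members every BCAS mouse lay above every Sham mouse, an order found upward in 18.5% of tested genes. Of the 6 receptor chains, which reached the filter's CPM in all 4 Sham libraries, 3 rose and 0 fell. The member counts, and those of the gene lists further on, are read against these shares, since 32.0% of all tested genes changed in one direction or the other.

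Total counts were 16759364 to 21794435 per library, and 3 counts corresponded to at most 0.179 CPM of these totals. In the TMM-normalized CPM printed here, 3 counts in Sham 2 corresponded to 0.187. Libraries of a group correlated at 0.930 to 0.987 (Pearson r of log2 CPM across genes). Summed neuron markers lay at 9986 to 11665 CPM in Sham, as cortex should hold them, and markers of Schwann cells (peripheral nerve) at 1.56 to 3.60 CPM in all 8 libraries. BCAS 2 lay nearest to the Sham group and BCAS 1 farthest from it in Il6st, Il6ra, Osmr and Osm. In bulk tissue, fewer cells of a type and less RNA per cell cannot be told apart, nor can more cells and more RNA per cell.

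**Figure D1:**
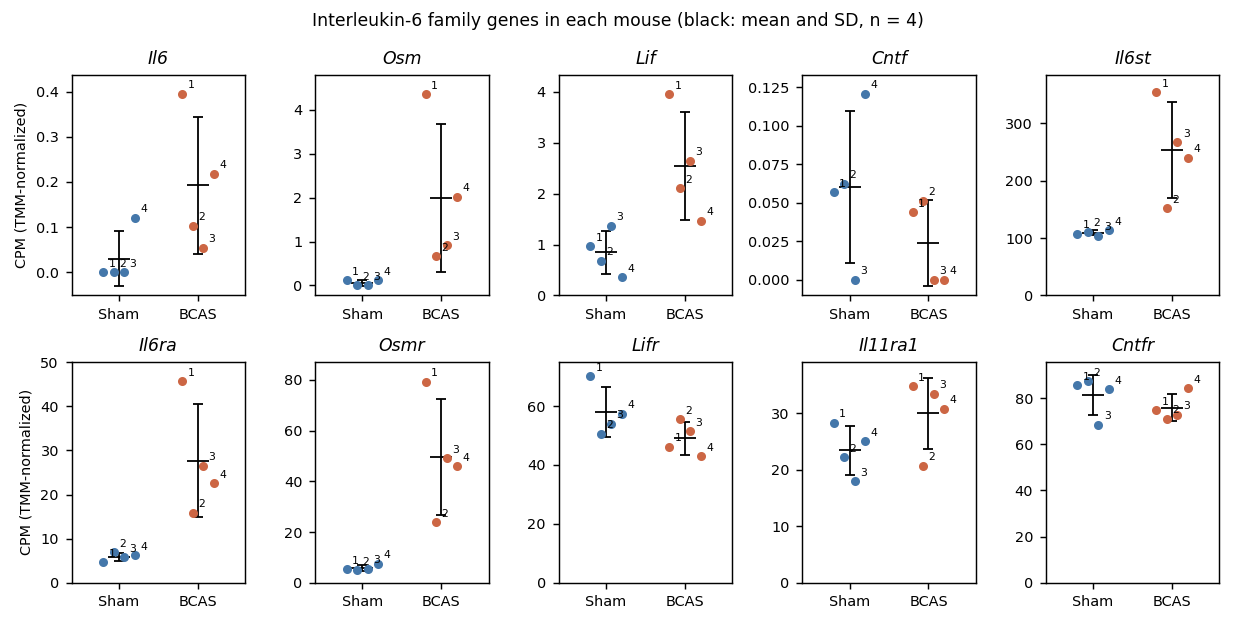
CPM (TMM-normalized, linear axis, a separate scale for each gene) of the 10 members in each mouse, Sham in blue and BCAS in orange, numbered by replicate, with the mean and SD of 4 mice in black. In Osm, Lif, Il6st, Il6ra and Osmr the 4 BCAS mice lie above all 4 Sham mice, and in the other 5 genes the groups overlap.

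The sequences just upstream of a start site are where transcription factors of this route are often looked for, so the windows of 4 members are printed to show what they hold: the ligands Il6 and Lif, whose windows held a match, and the shared and interleukin-6-specific receptor chains Il6st and Il6ra, which rose and whose windows held none. They are the 250 bases before the RefSeq start site in GRCm38.p6, 5′ to 3′ on the strand of the gene. Capitals mark a match, on either strand, to the AP-1 motif TGANTCA or the NF-kappaB motif GGGANTTTC.
Il6 (chr5:30012864-30013113, plus strand): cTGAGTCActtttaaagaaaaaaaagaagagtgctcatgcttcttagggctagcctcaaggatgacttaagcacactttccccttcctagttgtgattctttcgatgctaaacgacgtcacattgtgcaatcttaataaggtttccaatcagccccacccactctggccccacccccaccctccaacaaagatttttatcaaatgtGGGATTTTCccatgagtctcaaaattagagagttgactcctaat
Lif (chr11:4257318-4257567, plus strand): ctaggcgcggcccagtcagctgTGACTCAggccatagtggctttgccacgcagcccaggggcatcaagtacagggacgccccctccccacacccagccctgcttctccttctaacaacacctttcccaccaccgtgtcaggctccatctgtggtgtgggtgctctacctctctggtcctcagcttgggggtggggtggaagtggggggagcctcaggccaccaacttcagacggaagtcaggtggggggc
Il6st (chr13:112463820-112464069, plus strand): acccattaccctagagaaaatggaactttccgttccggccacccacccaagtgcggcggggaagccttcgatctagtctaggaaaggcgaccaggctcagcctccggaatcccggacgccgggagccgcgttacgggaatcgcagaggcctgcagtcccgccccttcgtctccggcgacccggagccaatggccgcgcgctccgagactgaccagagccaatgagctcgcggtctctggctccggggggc
Il6ra (chr3:89913197-89913446, minus strand): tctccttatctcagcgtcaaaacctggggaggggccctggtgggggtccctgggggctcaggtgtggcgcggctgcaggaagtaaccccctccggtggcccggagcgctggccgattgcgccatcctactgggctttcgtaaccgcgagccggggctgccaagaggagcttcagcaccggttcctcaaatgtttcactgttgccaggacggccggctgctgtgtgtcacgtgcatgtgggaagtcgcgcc
The Il6 window held an AP-1 match at positions -249 to -243 from the start and an NF-kappaB match at -44 to -36. The Lif window held an AP-1 match at -228 to -222. The unprinted Cntf window held one at -245 to -239. Among 32851 RefSeq windows of the same length, 6.75% held the AP-1 motif and 0.941% the NF-kappaB motif. The STAT motif TTCNNNGAA, searched in the same way, stood in 7.02% of windows. It stood in no window of the 9 members that had one, and Osm had no window. No receptor window matched any of the motifs. These matches are letters in a window only. The Il6ra window lies within an exon of Gm42809, a gene annotated on the opposite strand, and 11 bases of the Lif window lie within a Lif exon of the annotation used for counting. In that annotation all 250 bases of the Osmr window lie within an Osmr exon, and 247 bases of an Il11ra1 window within an Il11ra1 exon. These windows are therefore not upstream of the start annotated there. Some Lifr and Cntfr windows also hold exon bases of their own gene.

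Osm encodes oncostatin M, a cytokine made largely by myeloid cells (ENSMUSG00000058755.3, mm10 chr11:4236420-4241026, plus strand). Sham mice 1 to 4 had 2, 0, 0 and 2 Osm reads, against 99, 13, 17 and 37 for BCAS mice 1 to 4 (values below keep this order). All 4 BCAS mice were above the Sham range, and BCAS 1 held more reads than the other 3 together. In CPM this was 0.0586 ± 0.0677 (SD, n = 4) in Sham and 1.99 ± 1.68 in BCAS, with a log2 fold change of 4.93 (SE 0.92) and an adjusted p of 0.00702 by edgeR. Without BCAS 1 the log2 fold change was 4.20 (adjusted p = 0.00559), and over all single libraries left out it was 4.20 to 5.45. Because Sham held only 4 reads in all against 166, a ratio of the pooled reads was also formed. Scaled to the TMM-normalized library sizes it was 35.5, with an exact 95% interval of 13.6 to 132 that covers counting error only.

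Lif encodes leukemia inhibitory factor (ENSMUSG00000034394.14, mm10 chr11:4257557-4272514, plus strand). Its CPM was 0.966, 0.686, 1.37 and 0.362 in Sham, compared with 3.96, 2.11, 2.65 and 1.47 in BCAS. The groups did not overlap, but the highest Sham mouse and the lowest BCAS mouse were close together. The log2 fold change was 1.58 (SE 0.43, adjusted p = 0.0259, edgeR), on 58 reads in Sham and 207 in BCAS. This call was the least secure of the 5: without any 1 of Sham 1, Sham 2, Sham 4, BCAS 1 or BCAS 3 the adjusted p was 0.0511 to 0.0749, with log2 fold changes of 1.29 to 1.64. Osm and Lif are neighbours on chromosome 11, on the same strand and 16.5 kb apart, with no annotated gene between them.

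Il6 encodes interleukin-6 itself (ENSMUSG00000025746.11, mm10 chr5:30013114-30019981, plus strand). Sham mice had 0, 0, 0 and 2 Il6 reads, and BCAS mice 9, 2, 1 and 4. The groups overlapped, and no Sham mouse reached 3 counts. Over the pooled 2 and 16 reads the scaled ratio was 6.85 (exact 95% interval 1.61 to 61.4, counting error only). Between mice, the exact two-sided permutation test of mean CPM gave p = 0.0857, where the smallest p that 4 against 4 allows is 0.0286. A difference in Il6 between the groups was therefore not detected.

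Cntf encodes ciliary neurotrophic factor, known from astrocytes and Schwann cells (ENSMUSG00000079415.2, mm10 chr19:12763660-12765632, minus strand). It had 1, 1, 0 and 2 reads in Sham and 1, 1, 0 and 0 in BCAS. No mouse reached 3 counts, so no fold is given, and the exact two-sided permutation p was 0.2. Most of its exon bases (78.9%) overlap exons of Zfp91 on the same strand, where reads would not be assigned to either gene, and how many reads this removed was not tested.

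Il6st, the gp130 chain that these complexes share, was the most abundant member in reads (ENSMUSG00000021756.12, mm10 chr13:112464070-112510086, plus strand). It stood at 107, 111, 104 and 114 CPM in Sham and at 354, 152, 267 and 240 CPM in BCAS. The Sham mice lay within a narrow band (coefficient of variation 3.95%), whereas the BCAS mice spread over a 2.33-fold range with BCAS 1 highest and BCAS 2 lowest. The log2 fold change was 1.22 (SE 0.22, adjusted p = 0.00572, edgeR), from 109 ± 4.30 to 253 ± 83.2 CPM (SD, n = 4).

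Il6ra encodes the alpha chain that binds interleukin-6 (ENSMUSG00000027947.11, mm10 chr3:89864059-89913196, minus strand). It stood at 4.66, 6.86, 5.83 and 6.22 CPM in Sham and at 45.6, 15.9, 26.5 and 22.6 CPM in BCAS. The lowest BCAS mouse was well above the highest Sham mouse. Il6ra had a log2 fold change of 2.23 (SE 0.31, adjusted p = 0.00263, edgeR), from 5.89 ± 0.926 to 27.7 ± 12.8 CPM. Of its exon bases, 2.8% overlap Gm42809 on the opposite strand. No strand option was set in the counting, so reads there would not be assigned to either gene.

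Osmr encodes the oncostatin M receptor chain (ENSMUSG00000022146.12, mm10 chr15:6813577-6874969, minus strand). It stood at 5.34, 4.99, 5.55 and 7.48 CPM in Sham and at 79.2, 23.9, 49.1 and 46.0 CPM in BCAS. The lowest BCAS mouse stood far above the highest Sham mouse. Its fitted log2 fold change was 3.08 (SE 0.34, adjusted p = 0.0016, edgeR), from 5.84 ± 1.12 to 49.6 ± 22.7 CPM, and 2 standard errors on either side span 2.41 to 3.76.

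Lifr encodes the receptor chain for leukemia inhibitory factor (ENSMUSG00000054263.12, mm10 chr15:7090614-7197489, plus strand). It lies 216 kb from Osmr on the opposite strand, with the gene model Gm38282 between them. Its CPM was 70.1, 50.5, 53.9 and 57.3 in Sham and 46.2, 55.5, 51.5 and 42.9 in BCAS. The groups overlapped, and BCAS 2, lowest for Osmr, was the highest BCAS mouse for Lifr. The log2 fold change of -0.24 (SE 0.12) had an adjusted p of 0.152 by edgeR, and the span of 2 standard errors reached from -0.49 to 0.00.

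Cntfr encodes the chain that binds ciliary neurotrophic factor and is known from neurons (ENSMUSG00000028444.17, mm10 chr4:41657498-41697089, minus strand). Its CPM was 85.6, 87.4, 68.5 and 83.9 in Sham and 74.8, 71.1, 72.8 and 84.2 in BCAS. The groups overlapped, with Sham 3 the lowest of all 8 mice. Cntfr had a log2 fold change of -0.10 (SE 0.10, adjusted p = 0.435, edgeR), with a span of -0.30 to 0.09.

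Il11ra1 encodes the interleukin-11 receptor alpha chain (ENSMUSG00000073889.10, mm10 chr4:41699989-41769474, plus strand) and lies 2.9 kb from Cntfr, on the opposite strand. Its CPM was 28.4, 22.3, 18.0 and 25.0 in Sham and 34.8, 20.8, 33.5 and 30.8 in BCAS. Of the BCAS mice 3 lay above all Sham mice, and BCAS 2 lay within the Sham range. For Il11ra1 the log2 fold change was 0.36 (SE 0.19, adjusted p = 0.167, edgeR), with a span of -0.02 to 0.73. Without BCAS 2 it was 0.51 with an adjusted p of 0.016. Its near-identical copy Il11ra2 had 0 reads except 1 in BCAS 1, and reads that match both copies were not counted.

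**Figure D2:**
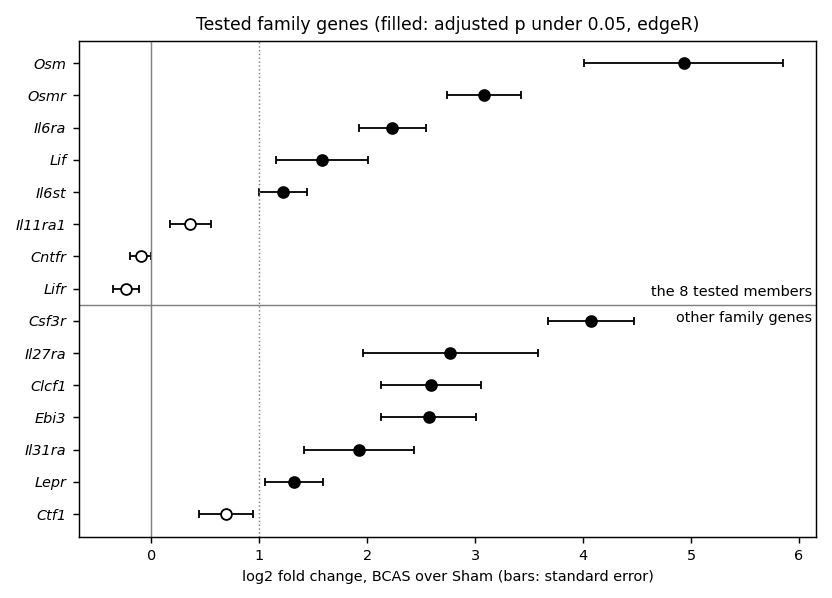
Log2 fold change of BCAS over Sham, with its standard error, for the 8 tested members (upper block) and other tested genes of the family (lower block), filled where the edgeR adjusted p is under 0.05, with a dotted line at 1. Osm has the widest bar of the members (SE 0.92), and Lifr, Cntfr and Il11ra1 lie nearest to 0.

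Levels of different genes are compared here only per length, as transcripts per 1000000 (TPM) computed from the counts and the deposited exon lengths. In Sham, Cntfr stood highest at 123 ± 10.3 TPM (SD, n = 4), followed by Il6st at 41.4 ± 1.55, Lifr at 22.7 ± 3.06 and Il11ra1 at 22.0 ± 3.70. Lifr and Il11ra1 overlapped between mice. Il6ra at 2.88 ± 0.460 and Osmr at 2.04 ± 0.411 TPM came next and overlapped each other, and the 4 ligands stayed at or below a mean of 0.825 TPM. Thus the Sham cortex held far more transcript of Cntfr, Il6st and Lifr per length than of Il6ra and Osmr.

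In BCAS, Cntfr (114 ± 10.6 TPM) and Il6st (94.7 ± 28.3 TPM) overlapped between mice. Il11ra1 (27.9 ± 5.30), Lifr (19.1 ± 2.45), Osmr (16.9 ± 7.26) and Il6ra (13.2 ± 5.66 TPM) followed, each overlapping the next. Osmr thus overlapped Lifr between mice, as it did not in Sham. Osm (3.61 ± 2.94 TPM) and Lif (2.43 ± 0.927 TPM) overlapped, and Il6 (0.328) and Cntf (0.0930 TPM) were lowest.

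Ratios between chains were formed within each mouse, and are given as a description with no test. Osmr to Lifr was 0.0678, 0.0879, 0.0915 and 0.116 in Sham, against 1.53, 0.383, 0.848 and 0.953 in BCAS. In 1 BCAS mouse the Osmr level per length exceeded that of Lifr. The log2 difference of the ratio was 3.22, and 2.92 to 3.59 when any 1 mouse was left out.

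Relative to the shared chain, Osmr to Il6st was 0.0413 to 0.0603 in Sham and 0.144 to 0.205 in BCAS, a log2 difference of 1.82. Il6ra to Il6st was 0.0557 to 0.0795 in Sham and 0.121 to 0.165 in BCAS, a log2 difference of 0.98. Osmr and Il6ra therefore stood higher against gp130 in every BCAS mouse than in any Sham mouse. Lifr to Il6st went the other way, from 0.469 to 0.672 in Sham down to 0.134 to 0.376 in BCAS. Cntfr to Lifr overlapped between the groups, at 4.73 to 6.69 in Sham and 4.96 to 7.60 in BCAS.

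**Figure D3:**
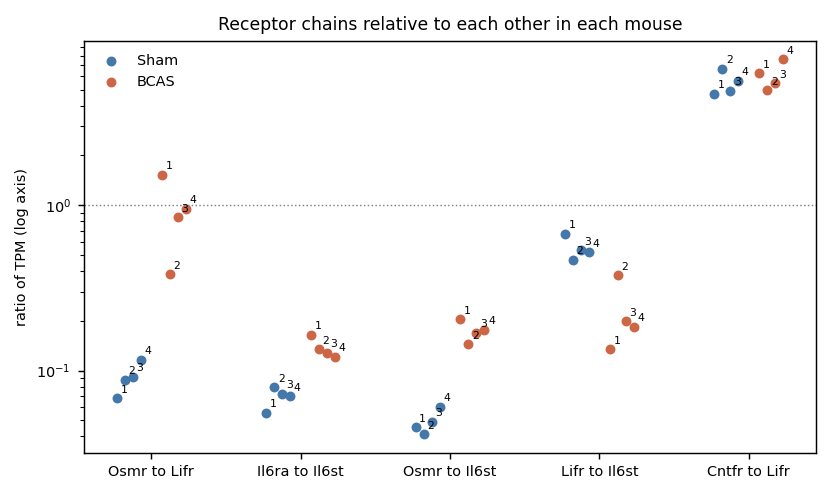
Ratio of TPM (log axis) between receptor chains in each mouse, Sham in blue and BCAS in orange, numbered by replicate, with a dotted line at a ratio of 1. The groups stand apart in the first 4 ratios, with Osmr to Lifr at 0.0678 to 0.116 in Sham and 0.383 to 1.53 in BCAS, and overlap in Cntfr to Lifr.

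The BCAS mice ranked alike in several members. From high to low, Il6st, Il6ra, Osmr and Il11ra1 ranked the mice as BCAS 1, BCAS 3, BCAS 4, BCAS 2. Osm placed them as 1, 4, 3, 2, and Lif as 1, 3, 2, 4. Lifr (2, 3, 1, 4) and Cntfr (4, 1, 3, 2) did not share this order. With 4 mice such orders are a description only.

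The genes whose log2 CPM ran closest to a member over the 8 libraries are also a description, since all share the same libraries and group difference. For Osmr they were Apbb1ip, Pik3ap1 and Naip5 (Pearson r 0.9992, 0.9989 and 0.9981). For Il6st they were Arap1, Slc39a1 and Fli1 (0.9992, 0.9990 and 0.9989). For Il6ra they were Abhd17c, Dok1 and Cdk6 (0.9962, 0.9961 and 0.9953). For the sparsely read ligands the closest genes were Crtc2, Bckdha and Pld1 for Osm (0.9953, 0.9926 and 0.9901) and Gm6863, Twistnb and Papss2 for Lif (0.9891, 0.9828 and 0.9815).

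Other ligands and partner subunits of the family were read from a list of 8 genes, of which 3 could be tested and 2 rose. Clcf1, which encodes cardiotrophin-like cytokine factor 1, a ligand for the ciliary neurotrophic factor receptor, had 32, 15, 12 and 23 reads in Sham and 287, 60, 130 and 118 in BCAS (log2 fold change 2.59, SE 0.46, adjusted p = 0.00577, edgeR). Ebi3, a subunit of interleukins 27 and 35, had 11, 18, 6 and 13 reads against 161, 44, 79 and 64 (2.57, SE 0.44, adjusted p = 0.00511, edgeR). Ebi3 reached the filter's CPM in 3 Sham libraries and in all 4 of BCAS. Ctf1, which encodes cardiotrophin-1, had a log2 fold change of 0.69 (adjusted p = 0.0593) and did not pass. Il11, Ctf2, Il27, Il31 and Csf3 were too low to test, and Il31 had no read in any mouse.

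Of the 5 other receptors and relatives, 4 were tested and all 4 rose. Il27ra and Il31ra each reached the filter's CPM in 1 Sham and 4 BCAS libraries, so they were tested only because of their BCAS level, and the count over this list is no support for a direction. Csf3r, the receptor for granulocyte colony-stimulating factor, went from 84 to 160 reads in Sham to 1060 to 4665 in BCAS, with a log2 fold change of 4.07 (adjusted p = 0.00146, edgeR). Lepr, the leptin receptor, had a log2 fold change of 1.32 (adjusted p = 0.00943). Il27ra (2.77, adjusted p = 0.0315) and Il31ra (1.92, adjusted p = 0.0242) rested on few reads, with at most 10 and 11 in any Sham mouse. Il31ra lies 9.81 kb from Il6st on the opposite strand. Leaving out Sham 1, Sham 2 or Sham 3 left 2 of these receptors past the test.

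Downstream, 5 of 11 listed kinases, STATs and adaptors rose and 0 fell, with a median log2 fold change of 0.44 against -0.01 over all tested genes. The largest rises were in Stat5a, a transcription factor (1.90), and Shc1, an adaptor (1.42), and the smallest in Tyk2, a Janus kinase (0.87), and Stat5b (0.45). For Stat5a (SE 0.50, adjusted p = 0.0221, edgeR) the groups overlapped, with Sham 2 at 3.87 CPM and BCAS 2 at 3.14. Stat3, the main transcription factor of the route, rose as well. It had 968, 874, 1015 and 915 reads in Sham and 3778, 1474, 2369 and 2270 in BCAS (log2 fold change 1.15, SE 0.20, adjusted p = 0.00527, edgeR). The kinases Jak1 (0.02, adjusted p = 0.872) and Jak2 (0.35, adjusted p = 0.118), picked after seeing their values, did not pass. Without Sham 4 or without BCAS 3, 3 genes of this list rose.

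Of 14 negative regulators, 5 rose and 1 fell, with a median log2 fold change of -0.04, where 19.2% of all tested genes rose and 12.8% fell. Socs3, the feedback inhibitor that binds gp130, had 92, 69, 100 and 79 reads in Sham and 793, 147, 341 and 253 in BCAS (log2 fold change 1.90, SE 0.41, adjusted p = 0.0113, edgeR). Ptpn6, a phosphatase of blood-lineage cells, had the largest change (4.06), and Socs1 (1.04), Socs6 (0.71) and Socs4 (0.63) also rose. Socs7 fell by 0.39 on the log2 scale (adjusted p = 0.0233, edgeR), with an adjusted p of 0.0585 to 0.0647 without any 1 of Sham 1, Sham 2, Sham 4, BCAS 3 or BCAS 4. The 4 listed Pias genes, which encode inhibitors of activated STATs, had log2 fold changes of -0.18 to 0.00, and none passed.

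Membrane receptors of this family can be released by proteases, and all 4 listed shedding genes rose. Adam17, the protease that sheds the interleukin-6 receptor, stood at 17.8 ± 1.20 CPM in Sham and 66.3 ± 28.8 in BCAS (log2 fold change 1.90, adjusted p = 0.00344, edgeR). Adam10, another sheddase, had a log2 fold change of 0.48 (adjusted p = 0.029). Rhbdf2 (2.22) and Rhbdf1 (0.77), which encode the iRhom partners of Adam17, rose as well. With 1 mouse left out, 3 or 4 of the 4 passed.

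Of 22 listed STAT3-responsive and acute-phase genes, 21 were tested, 17 rose and 0 fell, with a median log2 fold change of 3.52. Of the 17, 5 (Lcn2, Ccl2, Timp1, Hp and Bcl3) reached the filter's CPM in 0 to 2 Sham libraries and were tested only because of their BCAS level, and of the 16 that reached it in all 4 Sham libraries 12 rose, with a median of 2.66. The largest rises were in Lcn2 (lipocalin-2, 7.68) and Ccl2 (a monocyte chemokine, 5.63), and the smallest in Cebpb (1.17) and Mcl1 (1.07), which encode a transcription factor of the acute-phase reaction and a survival protein. Gfap, the astrocyte filament, and Serpina3n, a protease inhibitor of reactive astrocytes, were singled out after their values were seen, with 3.90 and 4.76. Lcn2 ranged widely, with 2 to 12 reads in Sham and 3053, 36, 1488 and 337 in BCAS. Junb (-0.26), Bcl6 (0.35), Pim1 (1.18) and Lrg1 (1.25) did not pass. Saa3, an acute-phase protein gene, was removed by the filter, with 0 reads in all 4 Sham mice and 167, 2, 254 and 67 in BCAS. With 1 mouse left out, 15 to 21 of these genes rose, the most without BCAS 2.

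**Figure D4:**
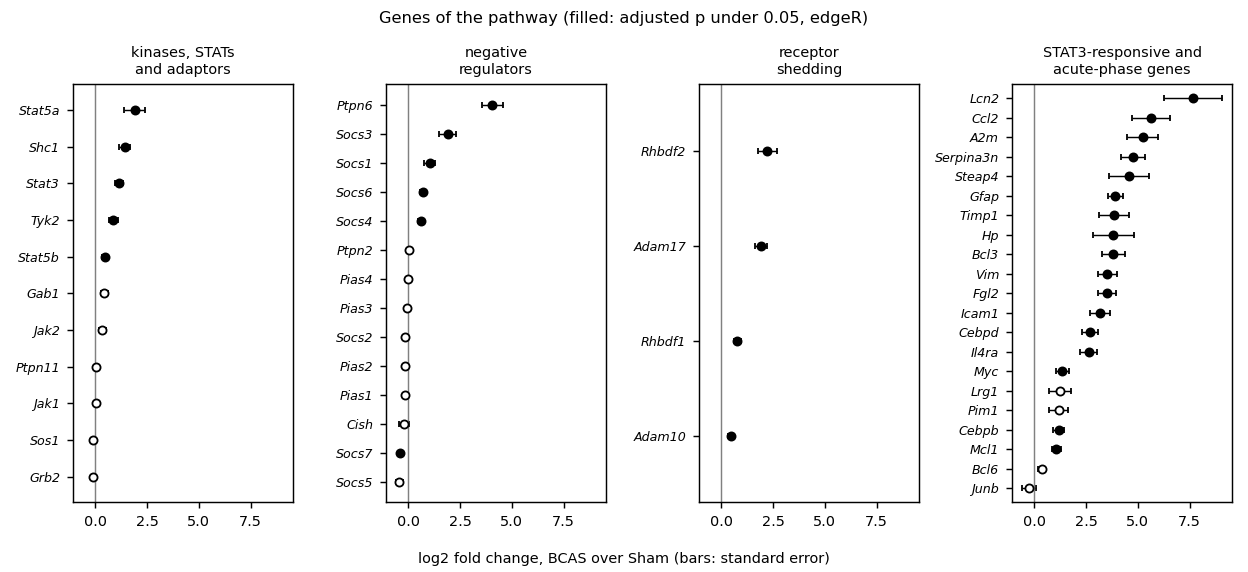
Log2 fold change of BCAS over Sham, with its standard error, for the tested genes of 4 pathway lists, filled where the edgeR adjusted p is under 0.05. The STAT3-responsive and acute-phase list reaches from -0.26 (Junb) to 7.68 (Lcn2), whereas the 4 Pias genes and the Janus kinase Jak1 lie near 0.

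Markers of other cells moved with these results. Microglia markers summed to 377 to 458 CPM in Sham and 1549 to 5803 in BCAS, a mean ratio of 7.93, and all 10 rose. Border macrophage markers went from 16.6 to 20.8 up to 30.3 to 114 CPM, with 4 of 6 past the test, 1 of which (Ms4a7) reached the filter's CPM in 2 Sham libraries only. Fibroblast markers went from 60.0 to 77.5 up to 135 to 713 CPM, and all 5 rose. Their part in the rise of Osmr, Il6ra, Il6st, Osm and Lif was not tested.

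Monocyte and neutrophil markers summed to 0.845 to 1.83 CPM in Sham and 3.66 to 67.7 in BCAS. Of these 9 genes only Ly6c2 and Ccr2 could be tested, and both rose (4 passed without BCAS 2). Ly6c2 reached the filter's CPM in 0 Sham libraries and Ccr2 in 2, so both were tested only because of their BCAS level. The neutrophil marker Ly6g had 0 reads in every library and Camp at most 3. Among the other untested genes of this list, S100a9 had 6, 1, 4 and 0 reads in Sham and 92, 7, 98 and 16 in BCAS, and S100a8 had 1, 0, 6 and 5 against 43, 5, 69 and 12. Retnlg had 3, 1, 2 and 1 against 12, 0, 7 and 5, and Mpo and Ngp had at most 8 reads in any library. T and NK cell markers went from 2.12 to 4.87 up to 5.25 to 60.1 CPM in sum. Of these 7 genes only Cd4 and Cd8a could be tested, and both rose (1 to 7 genes passed with 1 mouse left out). Cd8a reached the filter's CPM in 0 Sham libraries, so it was tested only because of its BCAS level. Cd4, at a mean of 2.57 CPM in Sham, overlapped between the groups. The part of these cells in the results was not tested either.

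Among the resident cells, astrocyte markers went from 4462 to 5212 CPM in Sham up to 5225 to 6206 in BCAS, a mean ratio of 1.19. Slc1a2, a glutamate transporter, made up 73.5% of the Sham sum and did not pass the test, and the other 7 summed to 1220 to 1339 CPM in Sham and 1557 to 2669 in BCAS, a mean ratio of 1.68 (chosen after the values were seen). The list had a median log2 fold change of 0.56. Of these 8 genes 7 rose, but 4 without any 1 of Sham 2, Sham 3, Sham 4, BCAS 3 or BCAS 4. The summed level of neuron markers went down, from 9986 to 11665 CPM to 3965 to 8529, a mean ratio of 0.575. Of 9 neuron markers 8 fell, but 1 to 4 without any 1 Sham mouse or without BCAS 3 or BCAS 4. Cntfr, known from neurons, had a BCAS over Sham fold of 0.931 beside it. The summed endothelial (mean ratio 1.24), pericyte and smooth muscle (1.30) and oligodendrocyte markers (1.27) overlapped between the groups. Of 7 endothelial markers Cdh5 (0.87) and Pecam1 (0.58) rose, but at most 1 did without any 1 Sham mouse or without BCAS 3 or BCAS 4. Of 6 pericyte and smooth muscle markers Pdgfrb (1.00) and Vtn (0.69) rose. Of 6 oligodendrocyte markers 0 passed by edgeR, with 0 at an unadjusted p under 0.05 and 0 by DESeq2 or limma, and 2 passed without BCAS 2. BCAS 1, the mouse with the most Osmr, Il6ra and Il6st, had the highest microglia sum and the lowest neuron sum. It was also highest in border macrophage, monocyte and neutrophil, T and NK cell, endothelial, pericyte and smooth muscle, and oligodendrocyte markers. BCAS 2, with the least of these members, had the highest neuron sum of the BCAS mice. In every other marker list BCAS 2 had the lowest BCAS sum, so its place was not particular to any cell type.

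**Figure D5:**
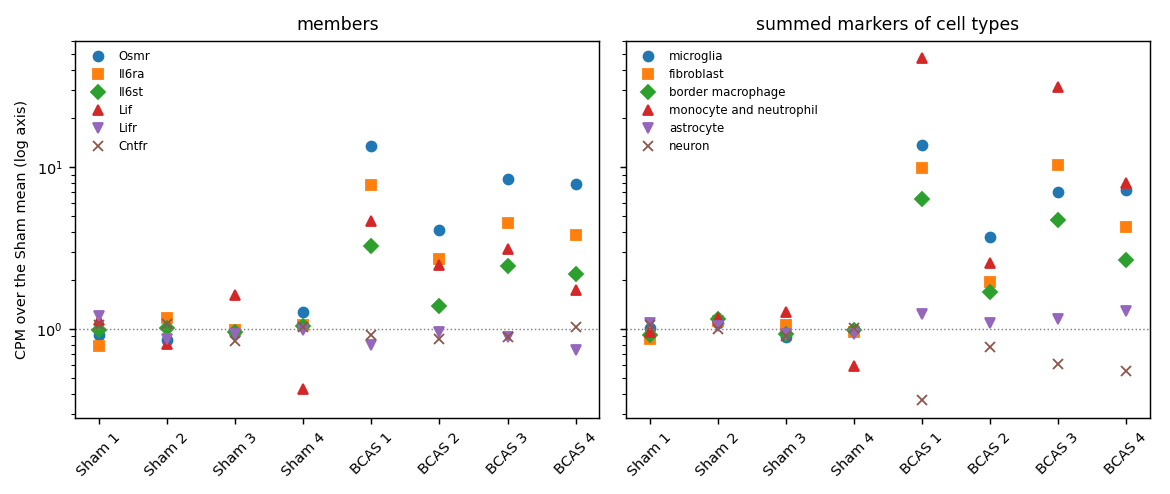
CPM over the Sham mean (log axis, dotted line at 1) in each of the 8 mice, for 6 members (left) and for the summed markers of 6 cell types (right). Microglia markers rise 7.93-fold in the mean and astrocyte markers 1.19-fold (1.68-fold without Slc1a2). BCAS 1 and BCAS 2 mark the ends of the BCAS range for Osmr, Il6ra and Il6st. They do so too for microglia, border macrophage, monocyte and neutrophil, and neuron markers.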

How the data were processed

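The authors deposited raw counts per gene, 1 table for each of the 8 libraries. Per the labels and file headers, paired reads were trimmed with Trim Galore, aligned to mm10 with HISAT2 and counted over GENCODE M20 exons with featureCounts (2.0.1 in the headers, 1.6.3 in the labels). No strand, multi-mapping or overlap option was set, so reads shared by overlapping genes or copies were not counted. Symbols were matched by gene ID for 54723 of 54752 genes.

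Counts were normalized by TMM and filtered with filterByExpr (minimum count 10, minimum total 15), and tested with the edgeR 4.0.16 quasi-likelihood test in R 4.3.3 with Benjamini-Hochberg adjustment over 17136 genes. The unit of the test was counts instead of the log2 values that the study tested with limma. The study also analyzed its data with DESeq2. Genes "rose" or "fell" at an adjusted p under 0.05. Totals of 16759364 to 21794435 counts set the precision; intervals and the floor of 3 counts cover counting error only. Members below the filter were tested by exact permutation of the 70 arrangements (SciPy 1.17.1). TPM used the deposited exon lengths. The code was tested on simulated data. Alternatives were other scalings, filters, tools (DESeq2 1.42.0, limma 3.58.1), thinning, a replicate block and leaving out each library. The members and lists were chosen with earlier results of these data known. All members were named, and from each list the genes past the test with the largest and smallest changes, up to 4, and those that a count of 5 or fewer needs. The likeness genes of each called member were the 3 with the highest r, taken from tested genes that averaged 100 counts or more. Some genes of the lists are not reported here.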

Additional observations from a re-analysis of the deposited data

Results flagged for a closer look

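Il6 in Sham mouse 4 stood at 0.121 CPM (2 reads), while the other 3 Sham mice had 0 reads, which set this mouse apart from its group by Dixon's test. Chance flags about 1 in 20 groups of continuous values, and 20 pairs of a member and a group were examined. With 3 libraries at 0, any reads in the fourth are flagged, so that rate does not apply here. The value lies under the floor of 3 counts.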

How the results depend on the processing

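Over 18 alternative settings, 142 log2 fold changes of members were computed, and 136 kept their direction and their side of the threshold, 5 lost the call, 1 gained it and 0 reversed. The 5 were Lif without 1 library each, and the gain was Il11ra1 without BCAS 2. Requiring 10 counts in every library removed Osm and Lif and left 3 members that rose. By limma on log2(CPM + 1), which understates changes of low genes, 4 members passed both thresholds, with Osm at 1.34 and Lif at 0.92. Without length, 4 of the 10 members kept their rank in BCAS. With 1 library left out, an alternative for the lists that was chosen after seeing the data, 2 to 4 of the other family receptors and 3 to 7 of the kinases, STATs and adaptors rose. Library size alone moved the median of all genes to 0.08 (log2).

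The replicate numbers did not pair the mice: same-numbered mice correlated at -0.103 to 0.00126 in their deviations from the group means. With the replicate number as a block, 5 members were called and 1809 genes, against 2097 without it. Il6 and Cntf had at most 9 and 2 reads in any library, too few for the filter.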
